A study of Rattus norvegicus with 6 samples.

Results

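The genes described here are 10 immediate early and AP-1 genes of the rat: Fos, Fosl2, Jun, Junb, Jund, Egr1, Ier2, Atf3, Atf4 and Myc. They were chosen by gene name, and all 10 were found as 1 row each among the 32883 genes of the count table. The study pulled RNA down from GH4C1 cells to find transcripts bound directly to Neat1, the long noncoding RNA on which nuclear bodies called paraspeckles are built. GH4C1 is an established rat pituitary tumour line of the somatolactotroph type. Every library came from wild type GH4C1 cells treated with psoralen, which links paired RNA strands, and the groups differ in the pool of capture oligonucleotides: oligo pool A or oligo pool B, with 3 libraries each. The labels give neither the oligonucleotide sequences nor the role of each pool, and they do not say whether the 3 libraries of a pool came from separate cultures, so the p-values measure the spread between these libraries, which may be technical. Input RNA was not analysed here, so more RNA captured per molecule and more of that RNA in the cells cannot be told apart.

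Immediate early genes are transcribed within minutes of a stimulus, without the need for new protein, and their transcripts are mostly short-lived. Fos and Jun proteins pair through leucine zippers to form AP-1, a transcription factor, and the related ATF proteins can join in such pairs. Egr1 and Myc encode transcription factors that follow growth signals, and Atf4 encodes the main transcription factor of the integrated stress response. In lactosomatotroph lines, hormones such as thyrotropin-releasing hormone are known to induce Fos and Egr1.

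The libraries held between 1826390 and 3685899 counts. A count of 0 allows up to 3 counts, or between 0.814 and 1.64 CPM (counts scaled by the total of the library), and intervals and floors here cover counting error only. The line's own markers were present: Gh1 stood at 170 ± 2.8 CPM in pool A and 166 ± 19 CPM in pool B (SD, n = 3 each), and Prl and Pou1f1 had between 398 and 2578 counts in every library. Of 5 fixed markers of the line, 3 were called between the pools (edgeR adjusted p under 0.05), 2 in favour of pool A and 1 in favour of pool B. Gh1 and Pou1f1 were not called. Among all tested genes, 18.6% were called in favour of pool A and 22.0% in favour of pool B. Prl (713 ± 41 against 445 ± 56 CPM) and Chga (1398 ± 122 against 999 ± 61 CPM) were higher with pool A, and Chgb (31688 ± 3740 against 3742 ± 428 CPM, SD, n = 3 each) was 7.68-fold higher with pool B. Of 14 matched markers of other pituitary, connective tissue, blood or vessel cells, 3 (Tshb, Fshb and Col3a1) were at 0 in every library, and the 14 together summed to between 48.6 and 60.5 CPM with pool A and between 76.3 and 86.5 CPM with pool B. Lhb, a gonadotroph hormone subunit, made up much of that difference, at 11.9 ± 3.6 CPM in pool A and 42.0 ± 2.7 CPM in pool B (SD, n = 3 each). The part of these markers in the results was not tested.

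RefSeq's GRCr8 table holds the window from 250 bases before to 50 bases after the transcription start for 6 of the 10 genes. The windows of 4 genes measured in every library are shown: Jund and Ier2, which hold the cAMP response element, Junb, another Jun gene, and Atf4, the gene with the most counts. They are Junb (chr19:40080876-40081175, plus strand), Jund (chr16:18769722-18770021, minus strand), Ier2 (chr19:40399123-40399422, plus strand) and Atf4 (chr7:113684431-113684730, plus strand). Capitals mark matches, on either strand, to the cAMP response element TGACGTCA, the AP-1 site TGANTCA, the EGR site GCGTGGGCG, the E-box CACGTG, the TATA box TATAAA, and the CArG box bound by serum response factor.
Junb: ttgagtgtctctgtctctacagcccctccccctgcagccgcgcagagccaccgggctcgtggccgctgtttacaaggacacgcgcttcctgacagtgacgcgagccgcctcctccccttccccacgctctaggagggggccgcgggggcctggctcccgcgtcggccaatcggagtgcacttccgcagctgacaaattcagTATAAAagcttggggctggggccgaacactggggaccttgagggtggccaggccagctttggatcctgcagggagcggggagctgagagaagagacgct
Jund: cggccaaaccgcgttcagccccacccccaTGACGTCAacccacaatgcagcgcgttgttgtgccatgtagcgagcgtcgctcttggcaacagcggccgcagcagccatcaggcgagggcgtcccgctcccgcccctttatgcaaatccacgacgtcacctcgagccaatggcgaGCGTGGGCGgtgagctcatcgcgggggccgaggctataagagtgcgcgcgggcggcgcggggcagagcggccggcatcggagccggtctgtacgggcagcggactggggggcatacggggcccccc
Ier2: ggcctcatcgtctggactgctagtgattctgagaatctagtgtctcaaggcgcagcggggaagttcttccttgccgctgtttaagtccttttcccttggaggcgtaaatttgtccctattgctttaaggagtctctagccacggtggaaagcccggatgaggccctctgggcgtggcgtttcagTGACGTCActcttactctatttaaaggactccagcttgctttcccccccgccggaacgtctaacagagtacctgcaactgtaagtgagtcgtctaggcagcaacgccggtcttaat
Atf4: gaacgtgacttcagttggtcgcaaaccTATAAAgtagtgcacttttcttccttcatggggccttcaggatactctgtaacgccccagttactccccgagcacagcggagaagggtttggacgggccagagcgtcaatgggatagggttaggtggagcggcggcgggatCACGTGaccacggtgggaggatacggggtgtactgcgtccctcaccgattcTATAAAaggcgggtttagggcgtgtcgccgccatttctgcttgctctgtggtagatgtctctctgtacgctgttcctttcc
The cAMP response element began 221 bases upstream of the Jund start and 66 bases upstream of the Ier2 start. It is found in 1.83% of the 33469 RefSeq windows of this length. Jund also held the EGR site, 76 bases upstream, which 0.544% of windows hold. The Atf4 window held an E-box 82 bases upstream and TATA boxes 223 and 31 bases upstream, elements found in 6.42% and 14.2% of windows. Junb held the TATA box, 49 bases upstream. Egr1, whose window is not printed, held 2 CArG boxes, at 105 and 83 bases upstream, an element in 1.64% of windows. The window of Fosl2, also measured in every library, is not printed and held no match to any of these elements. The AP-1 site was in none of the 6 windows, against 7.33% of all windows, which says only that these letters are not in this stretch. A match in the genome describes the gene and was not measured in the pull-down.

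Which of these transcripts differed in recovery between the pools was asked next. Of the 10 genes, 7 passed edgeR's expression filter and were tested, and 4 of these passed the 0.05 threshold on the adjusted p of the edgeR quasi-likelihood test. Atf4 and Fosl2 were higher with pool A, while Jun and Myc were higher with pool B. Among all 11582 tested genes, 18.6% were called in favour of pool A and 22.0% in favour of pool B, 40.6% in all, so 4 of 7 lies near what the table as a whole shows. The median log2 fold change of the 7 genes, pool A over pool B, was 0.46, against 0.015 over all tested genes. That median is the estimate of Ier2 (0.46 ± 0.51 SE, edgeR adjusted p 0.509), and the calls were 2 in each direction. Over the fits that leave out a library, the median ran from 0.20 without pool A replicate 3 to 0.57 without pool A replicate 2. Jund, Junb and Ier2 were tested and not called. Fos, Egr1 and Atf3 were too low to judge, for reasons given with each. Fold changes are on the TMM scale (edgeR's scaling between libraries). CPM values use total counts, and scaling by total counts alone moved the median log2 fold change of all genes by -0.14, while upper-quartile factors moved it by 0.10.

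**Figure D1:**
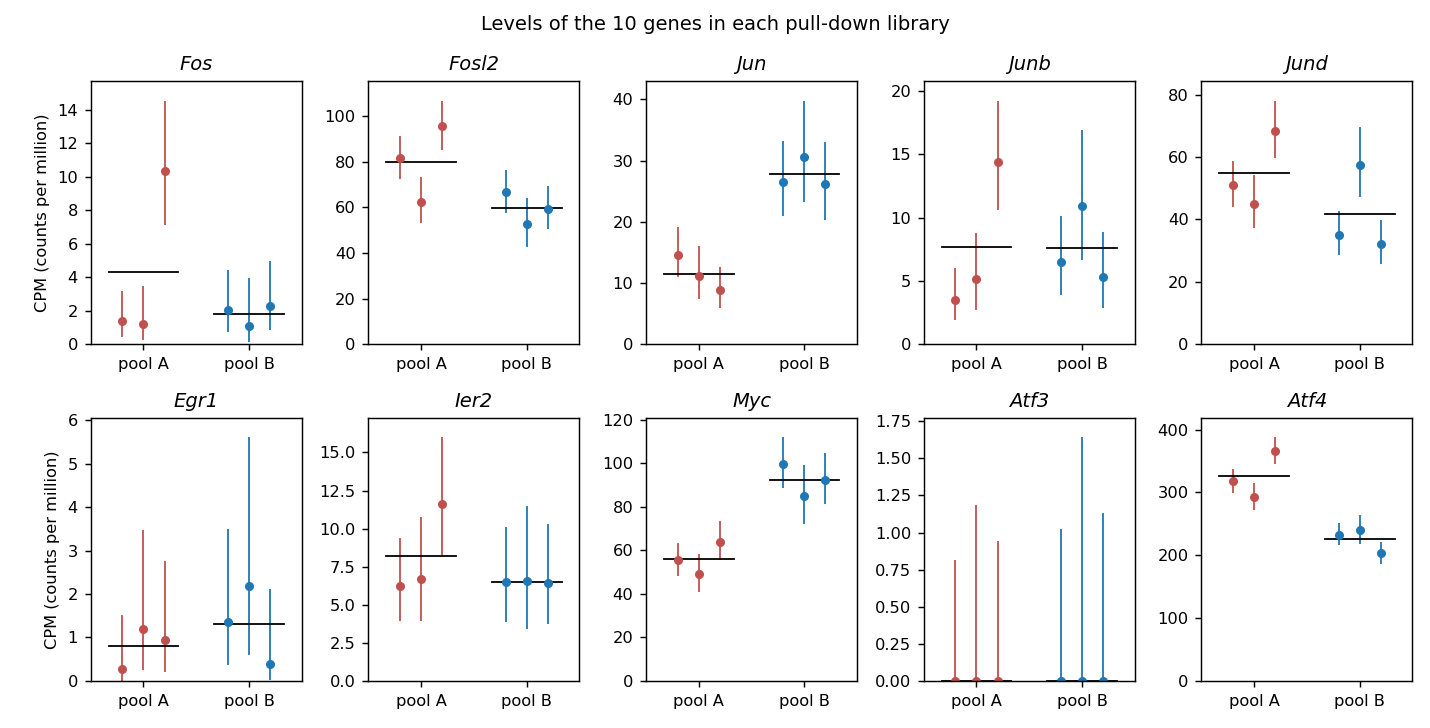
CPM of each of the 10 genes (vertical axes, each from 0 and on its own scale) in the 3 libraries of pool A and the 3 of pool B, left to right by replicate number. Points are libraries, thin bars are exact 95% Poisson intervals for counting error (for Atf3, the 3 counts that a count of 0 allows), and black lines are pool means; Jun and Myc sit higher in every pool B library, Atf4 in every pool A library, and Fos stands out in pool A replicate 3.

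Jun encodes c-Jun, the founding AP-1 subunit and a target of the JNK kinases. It received 54, 28 and 28 counts with pool A and 78, 56 and 69 with pool B, in the order of replicates 1, 2 and 3. This corresponds to 14.7, 11.1 and 8.78 CPM against 26.6, 30.7 and 26.1 CPM. Every pool B library was above every pool A library, as was the case for 30.2% of all tested genes. Jun was 2.15-fold higher with pool B (log2 fold change -1.11 ± 0.32 SE, edgeR adjusted p 0.00717), and 25.3% of tested genes differed by more. The call held in all 14 alternatives, with log2 fold changes from -1.34 to -0.89.

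Jund encodes JunD, the Jun protein that is made steadily in resting cells. Its counts were 188, 114 and 218 with pool A and 103, 105 and 85 with pool B, or 51.0, 45.1 and 68.4 CPM against 35.1, 57.5 and 32.2 CPM. The ranges overlapped through pool B replicate 2, which was above 2 of the pool A libraries. Its estimate was 0.56 ± 0.23 on the log2 scale (SE), with a 95% interval from 0.08 to 1.03 and an edgeR adjusted p of 0.0548. Jund therefore lay just outside the threshold, and it passed in 6 of the 14 alternatives. Among these were leaving out pool B replicate 2 (log2 fold change 0.83, adjusted p 0.00895) and leaving out pool A replicate 2 (0.67, adjusted p 0.0465).

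Junb encodes JunB, an early-response Jun protein known to restrain c-Jun. It had 13, 13 and 46 counts with pool A and 19, 20 and 14 with pool B, or 3.53, 5.14 and 14.4 CPM against 6.48, 10.95 and 5.30 CPM. Pool A replicate 3 was the highest library and the other pool A libraries were the lowest of the 6. The pool means, 7.70 ± 5.88 CPM and 7.57 ± 2.98 CPM (SD, n = 3 each), did not separate. The estimated log2 fold change was 0.17 ± 0.56 (SE), edgeR adjusted p 0.848, with a 95% interval from -0.98 to 1.32. Without pool A replicate 3 the estimate turned to -0.58 (adjusted p 0.556), and without pool B replicate 3 it was -0.031 (adjusted p 0.978).

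Ratios of counts within a library do not depend on how libraries are scaled, and 3 pairs of Jun genes could be compared in this way. The number of Jun counts per Jund count was 0.287, 0.246 and 0.128 with pool A and 0.757, 0.533 and 0.812 with pool B. All pool B ratios were above all pool A ratios. The mean log2 ratio differed by -1.71 between the pools, with SDs of 0.61 and 0.32 (n = 3 each), so Jun relative to Jund was 3.28-fold lower with pool A. An exact two-sided permutation test gave p = 0.1, the smallest that 3 against 3 libraries allow, and 0.3 after Benjamini-Hochberg adjustment over the 3 pairs. Jun per Junb (log2 difference -1.12, exact permutation p = 0.3, adjusted 0.4) and Junb per Jund (-0.60, exact permutation p = 0.4, adjusted 0.4) had overlapping ranges. Without replicate 1 of pool A these differences were -1.73 and -0.21, and without replicate 3 of pool A they were -0.37 and -1.0. The remaining 4 of 7 planned pairs included Fos, Egr1 or Atf3 and were not compared.

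**Figure D2:**
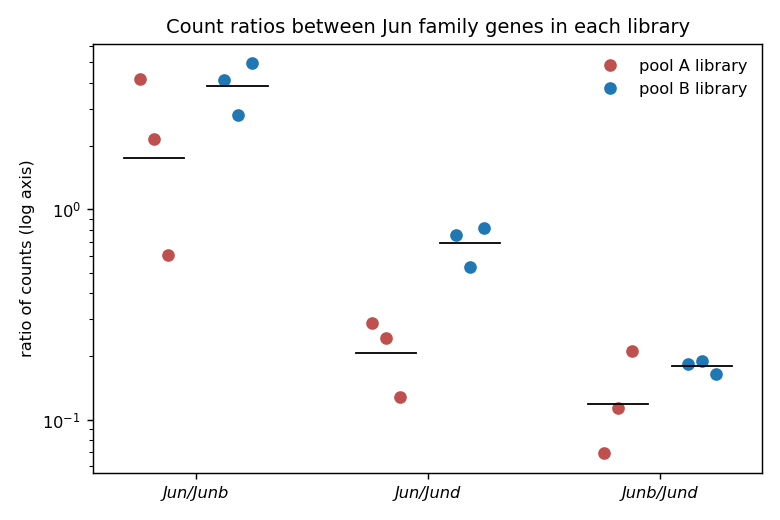
Ratio of counts between pairs of Jun family genes (vertical log axis) in each pull-down library, with pool A in red and pool B in blue; points are libraries and black lines are geometric means of 3 libraries. Jun per Jund runs from 0.128 to 0.287 with pool A and from 0.533 to 0.812 with pool B, whereas the other pairs overlap.

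Fosl2 encodes Fra-2, a Fos relative that lasts longer than c-Fos and pairs with Jun proteins. It received 300, 158 and 304 counts with pool A and 195, 96 and 157 with pool B, or 81.4, 62.5 and 95.4 CPM against 66.5, 52.6 and 59.4 CPM. The ranges overlapped on this scale, because pool A replicate 2 was below pool B replicate 1. Fosl2 was 1.47-fold higher with pool A (log2 fold change 0.56 ± 0.19 SE, edgeR adjusted p 0.0179), and 53.1% of tested genes differed by more. The call was lost in 5 of 14 alternatives, with total counts alone (0.42, adjusted p 0.0953) and without single libraries. The adjusted p was 0.0522 and 0.074 on leaving out replicate 1 or 3 of pool A, and 0.079 and 0.0506 on leaving out replicate 2 or 3 of pool B. Fosl2 and Jund had nearly equal fold changes, and they fell on either side of the threshold.

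Fos encodes c-Fos, the partner of c-Jun in classical AP-1 and the standard marker of recent cell stimulation. It had 5, 3 and 33 counts with pool A and 6, 2 and 6 with pool B. Pool A replicate 3 thus held 33 of the 55 counts, at 10.4 CPM (exact 95% Poisson interval 7.13 to 14.5), while no other library exceeded 2.27 CPM (0.833 to 4.94). The gene did not pass the expression filter and was too low to judge in the other 5 libraries. Without a filter the log2 fold change was 1.30 ± 0.89 (SE), edgeR adjusted p 0.339, with a 95% interval from -0.44 to 3.04.

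Egr1 encodes a zinc finger transcription factor induced through serum response factor. It had 1, 3 and 3 counts with pool A and 4, 4 and 1 with pool B, never above 2.19 CPM. It did not pass the filter, and without a filter its 95% interval of the log2 fold change ran from -3.80 to 2.73 (edgeR adjusted p 0.862), which leaves the direction unmeasured. Ier2, a small early-response nuclear protein gene, was measured in all libraries, with 23, 17 and 37 counts for pool A and 19, 12 and 17 for pool B. Pool B libraries lay between 6.43 and 6.57 CPM, and pool A libraries at 6.24, 6.72 and 11.6 CPM. Pool A replicate 3 was the highest, with an exact 95% Poisson interval (8.17 to 16.0 CPM) that overlapped those of all other libraries. Its log2 fold change of 0.46 ± 0.51 (SE) did not pass (edgeR adjusted p 0.509, 95% interval -0.59 to 1.52), and it was 0.20 without pool A replicate 3.

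Myc encodes c-Myc, which drives growth and ribosome production as a partner of Max. It had 204, 124 and 204 counts with pool A and 293, 155 and 244 with pool B, or 55.3, 49.0 and 64.0 CPM against 99.9, 84.9 and 92.3 CPM. Every pool B library was above every pool A library, as for 30.2% of tested genes. Myc was 1.49-fold higher with pool B (log2 fold change -0.58 ± 0.18 SE, edgeR adjusted p 0.00961), and 51.6% of tested genes differed by more. The call held in 13 of 14 alternatives and was lost without pool A replicate 2 (-0.50, adjusted p 0.0563).

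Atf4 was measured with the most counts of the 10 genes. It received 1171, 741 and 1167 counts with pool A and 683, 438 and 537 with pool B, or 318, 293 and 366 CPM against 233, 240 and 203 CPM. All pool A libraries were above all pool B libraries, as for 18.9% of tested genes. Atf4 was 1.60-fold higher with pool A (log2 fold change 0.68 ± 0.13 SE, edgeR adjusted p 0.000145), and 45.5% of tested genes differed by more. The call held in all 14 alternatives, with log2 fold changes from 0.53 to 0.78. Atf3, a stress-induced ATF gene and a known target of ATF4, is listed at 0 in all 6 libraries, which allows up to 1.64 CPM in the shallowest library. It was the only one of the 10 genes that overlaps another gene, Garin4, in RefSeq's GRCr8 annotation. No counted gene has the name Garin4, and the annotation used for counting is not given. The part of this overlap in the counts of Atf3 was not tested.

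**Figure D3:**
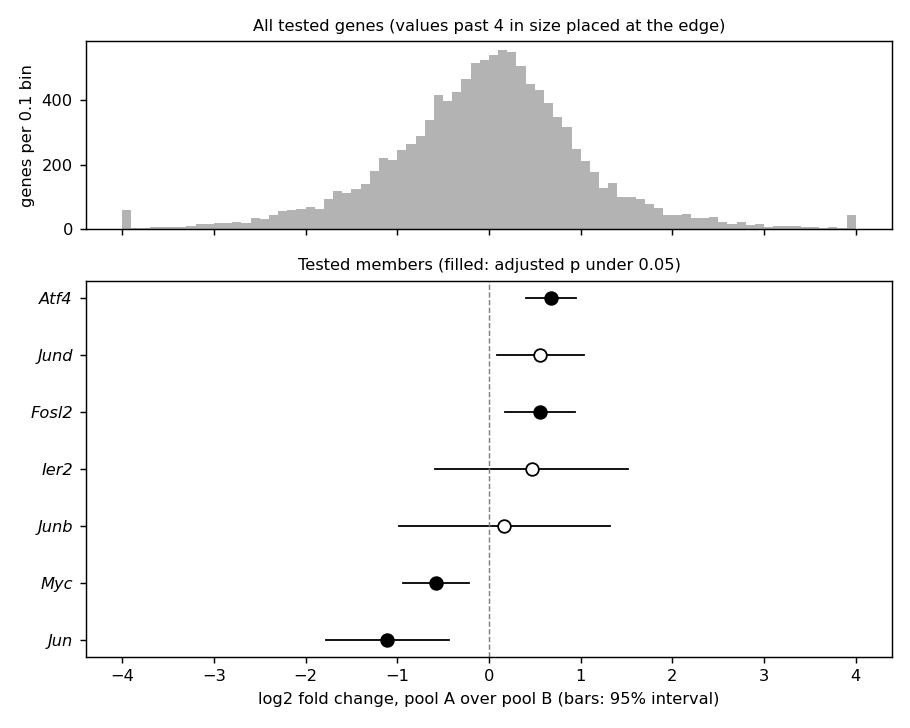
Upper panel, number of genes per bin of log2 fold change (pool A over pool B) for all 11582 tested genes. Lower panel, the 7 tested genes of the set with 95% intervals, filled where the edgeR adjusted p was under 0.05; their estimates lie between -1.11 and 0.68, and the intervals of Junb and Ier2 span 0.

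Pool A replicate 3 held the highest value of several of these genes. Of the 9 genes with any count, 6 had their highest CPM there (Fos, Fosl2, Junb, Jund, Ier2 and Atf4), while 19.4% of all tested genes did. Jun went the other way, with its lowest value of all 6 libraries in that sample. These are unlike sets. The 9 include Fos and Egr1, which did not pass the filter, and Atf4 and Fosl2, which were called higher with pool A. Among the 10 genes and a list of 33 other immediate early genes, 40 had a count. Of these, 10 (25%) were highest in pool A replicate 3 and 14 (35%) in pool B replicate 2, against 19.4% and 21.6% of all tested genes. Some of the 40 did not pass the filter, so these sets are unlike as well. In pool A replicate 3, 2 of the 40, Fos and Klf10, were more than 2-fold above every other library. This was so for 3.51% of all 18911 genes with a count, many of them at a few counts only, against 5.0% of the 40. Of the 11582 tested genes, an unlike set that leaves out Fos, it was so for 0.285%. Fos did not pass the expression filter. Klf10, an early-response repressor, had 55 counts there and at most 22 elsewhere. In the same sample Ptprc, a leukocyte marker, had 18 counts, against 6 and 1 in the other pool A libraries and 0 with pool B. Cd68, another blood cell marker of that list, did not follow it. Cd68 had 11.3 CPM there, 10.9 and 9.10 CPM in the other pool A libraries, and 15.3, 23.0 and 9.46 CPM with pool B. The part of such markers in the result was not tested. Without pool A replicate 3, Jun (-0.89, edgeR adjusted p 0.0435), Myc (-0.62, 0.0154) and Atf4 (0.65, 0.000851) kept their calls. Fosl2 (0.48, 0.074) lost its call.

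**Figure D4:**
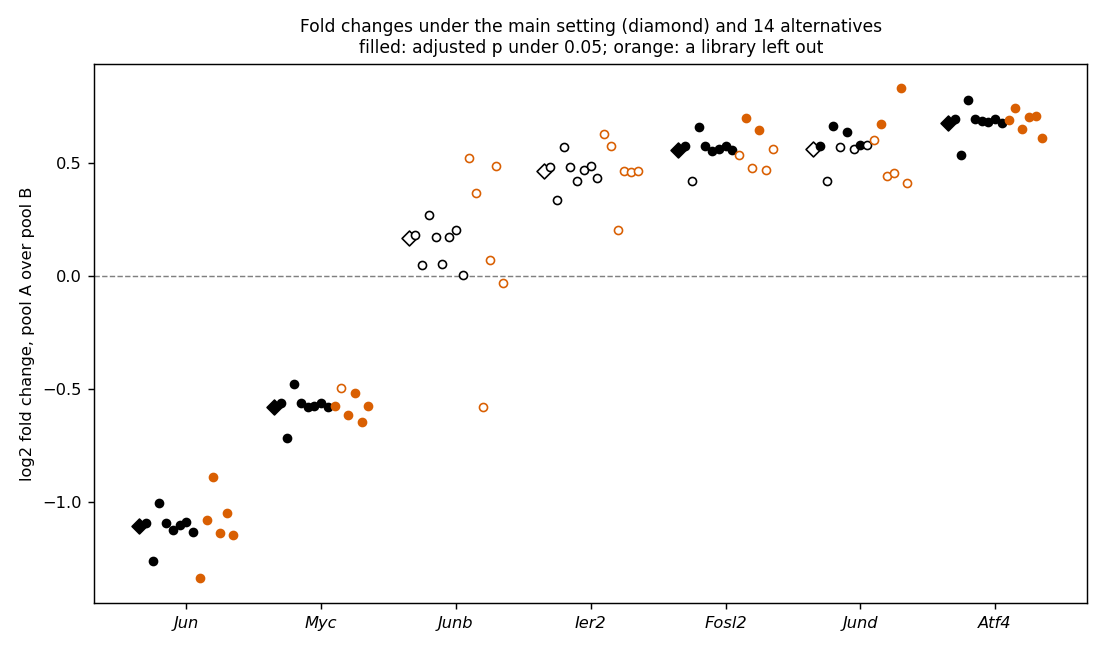
Log2 fold change, pool A over pool B, of the 7 tested genes under the main setting (diamonds) and 14 alternatives (circles; orange where 1 library was left out), filled where the adjusted p was under 0.05. Atf4 and Jun stay filled throughout, Fosl2 and Jund change sides of the threshold, and Myc is open only without pool A replicate 2. Junb crosses 0 without pool A replicate 3 or pool B replicate 3.

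Related genes were then taken from 5 lists. Of 19 other AP-1 and ATF genes, 13 were tested. Pool A was favoured by 2 of them and pool B by 3, with a median log2 fold change of -0.061 against 0.015 over all tested genes. These shares, 15.4% and 23.1%, were close to the 18.6% and 22.0% of all tested genes. Atf1, a CREB-like activator, had 98.2 ± 9.4 CPM with pool A and 41.3 ± 7.3 CPM with pool B (SD, n = 3 each); the log2 fold change was 1.39 ± 0.19 (SE; edgeR adjusted p 9.03e-07.) Mafg, a small Maf protein gene, was also higher with pool A (0.78 ± 0.16). Atf6, an endoplasmic reticulum stress sensor, was higher with pool B, at 201 ± 18 CPM against 102 ± 16 CPM (SD, n = 3 each; log2 fold change -0.83 ± 0.16, edgeR adjusted p 9.66e-05). Its relative Atf6b (-0.55 ± 0.18) and Mafk (-0.51 ± 0.19) were higher with pool B with less stable calls. The adjusted p of Atf6b rose to 0.0957, 0.088 and 0.0506 without pool A replicate 1, pool A replicate 2 and pool B replicate 1. That of Mafk rose to 0.139, 0.0904, 0.0679 and 0.147 without pool A replicates 2 and 3 and pool B replicates 1 and 3. Atf5 was not called (-0.34 ± 0.16, edgeR adjusted p 0.0906). It was called in 2 of 14 alternatives, with total counts alone and without pool A replicate 3 (-0.52, adjusted p 0.0129). Without replicate 2 of pool A it was -0.19 (adjusted p 0.436). The number favouring pool B was 1 without pool A replicate 2 or pool B replicate 1, and the median ran from -0.145 without replicate 3 of pool A to 0.049 without replicate 2 of pool A. Fosb and Batf were among the genes that did not pass the filter.

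Of 33 other immediate early genes, 22 were tested. Pool A was favoured by 2 (9.09%) and pool B by 4 (18.2%), against 18.6% and 22.0% of all tested genes. Trib1, a pseudokinase that steers protein degradation, differed most, with 126, 98 and 147 counts for pool A and 800, 572 and 719 for pool B. This was 39.7 ± 6.0 CPM against 286 ± 24 CPM (SD, n = 3 each); the log2 fold change was -2.71 ± 0.16 (SE; edgeR adjusted p 1.04e-13.) Plk2 (-1.46 ± 0.28), a polo-like kinase gene, and Klf6 (-1.37 ± 0.35), a zinc finger factor gene, were higher with pool B as well. Gadd45b, a stress response gene, was higher with pool A, at 23.0 ± 1.8 CPM against 8.87 ± 4.30 CPM (SD, n = 3 each; log2 fold change 1.496 ± 0.372). Btg2, an antiproliferative gene, was higher with pool A by 0.66 ± 0.25 (edgeR adjusted p 0.0378). That call held in 8 of 14 alternatives. It was lost with total counts alone and with the replicate number as a block. It was also lost on leaving out replicate 1 of pool A (0.33) or any library of pool B (0.143, 0.051 and 0.0586). Sgk1 was not called (0.45 ± 0.20, edgeR adjusted p 0.077) and passed without pool A replicate 3 (adjusted p 0.0318). The number favouring pool A was 1 on leaving out replicate 1 of pool A or any library of pool B. The median of the tested genes was 0.25, against 0.015 over all genes, and it was 0.023, 0.40 and -0.082 without pool A replicate 1, pool B replicate 1 and pool B replicate 3.

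Of 16 genes that act on immediate early genes or their products, 14 were matched and tested. In edgeR's test 5 favoured pool A and 0 favoured pool B, and 0 favoured pool B also at an unadjusted p under 0.05, with DESeq2 and with limma-voom. These shares were 35.7% and 0% of the 14, against 18.6% and 22.0% of all tested genes, and no test of that difference was made. The median log2 fold change was 0.57. Fbxw7, the ubiquitin ligase subunit that marks c-Jun and c-Myc for degradation, had 168 ± 10 CPM with pool A and 55.7 ± 11.2 CPM with pool B (SD, n = 3 each); the log2 fold change was 1.74 ± 0.17 (SE; edgeR adjusted p 2.52e-09.) Crtc3 (1.37 ± 0.29) and Crtc2 (0.83 ± 0.31), coactivators of CREB, and Crebbp (0.69 ± 0.14), the CREB-binding acetyltransferase, were higher with pool A. Cop1, a ligase that also targets c-Jun, was higher by 0.81 ± 0.32 (edgeR adjusted p 0.0442). Crtc2 held its call in 7 of 14 alternatives and Cop1 in 8. Both lost it with total counts alone, and Crtc2 also with the replicate number as a block. Crtc2 lost its call on leaving out replicate 1 or 2 of pool A (0.0656 and 0.114) or of pool B (0.071 and 0.102). Cop1 lost its call on leaving out replicate 1 or 2 of pool A (0.164 and 0.0833) or replicate 1 or 3 of pool B (0.0901 and 0.223). The count of 5 was 3 without pool A replicate 1 or pool B replicate 1. Nab2, a corepressor of Egr proteins, did not pass (-0.046 ± 0.189, edgeR adjusted p 0.877), and its sign changed with upper-quartile factors.

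Of 25 genes of ATF4 action and the integrated stress response, 24 were tested. Pool A was favoured by 8 and pool B by 9, and the median log2 fold change was -0.028. Its sign depended on the library left out, with -0.069 and -0.17 without replicate 3 of pool A or of pool B and between 0.0065 and 0.13 without any of the others. Both shares, 33.3% and 37.5%, were above those of all tested genes, and no test of that difference was made. Eif2ak3, which encodes the stress kinase PERK upstream of ATF4, had 101, 72 and 93 counts with pool A and 385, 242 and 453 with pool B; the log2 fold change was -2.21 ± 0.19 (SE; edgeR adjusted p 1.31e-10.) Eif2ak2, which encodes PKR, another kinase of the same translation factor, was higher with pool B by a log2 fold change of -1.62 ± 0.30. Vldlr, a lipoprotein receptor gene, was higher with pool B as well (-1.83 ± 0.18). Cebpb, a bZIP partner of ATF4, had 42.7 ± 8.8 CPM with pool A and 11.3 ± 3.9 CPM with pool B (SD, n = 3 each); the log2 fold change was 2.11 ± 0.30 (SE; edgeR adjusted p 1.73e-06.) Ddit4, a stress-induced inhibitor of mTORC1, was higher with pool A by 1.64 ± 0.30. Shmt2, the most abundant gene of the list that was not called, had a log2 fold change of 0.28 ± 0.14 (edgeR adjusted p 0.118).

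Of 12 genes of the Myc and Max network, 11 were tested. Pool A was favoured by 1 (9.09%) and pool B by 3 (27.3%), against 18.6% and 22.0% of all tested genes, and the median log2 fold change was 0.12 against 0.015. Max, the shared partner of these proteins, was higher with pool A, at 36.6 ± 5.2 CPM against 17.6 ± 6.8 CPM (SD, n = 3 each; log2 fold change 1.20 ± 0.29, edgeR adjusted p 0.00146). Myc itself was higher with pool B, and so was its relative Mycn, with 198 ± 34 CPM for pool A and 350 ± 47 CPM for pool B (SD, n = 3 each; -0.68 ± 0.14, edgeR adjusted p 0.000286). Zbtb17, which encodes the Myc-binding repressor partner Miz-1, differed most (-1.72 ± 0.19). Mxd4, a Myc antagonist, was higher with pool B by a log2 fold change of -0.73 ± 0.22. Mga was not called (-0.14 ± 0.19, edgeR adjusted p 0.609). The number higher with pool A was 2 without pool A replicate 1 or without pool B replicate 2, and the median ran from -0.076 without replicate 1 of pool A to 0.20 without replicate 2 of pool A.

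**Figure D5:**
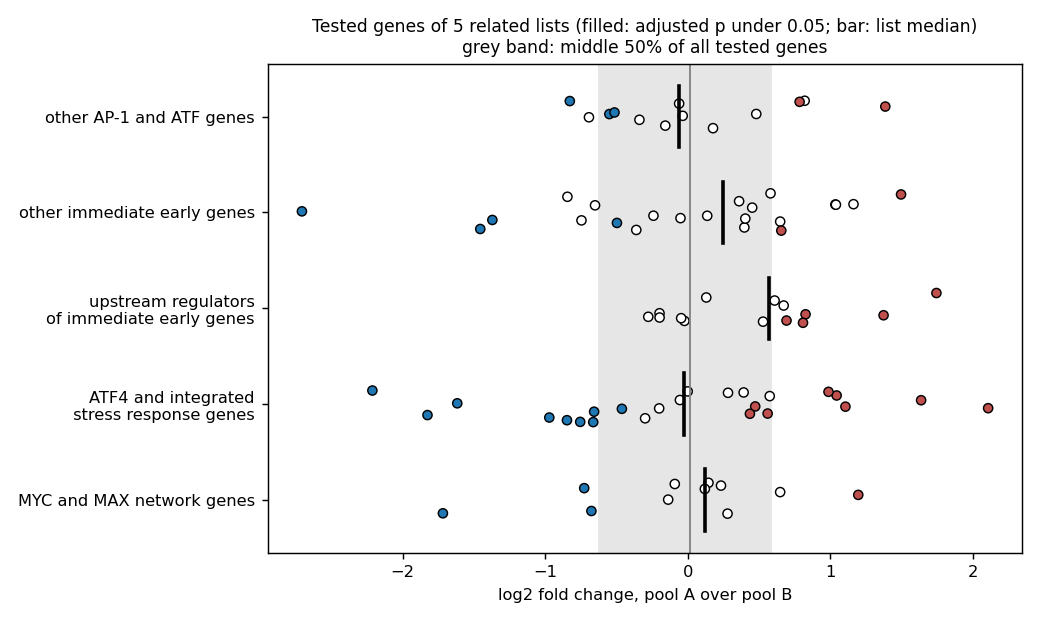
Log2 fold change (pool A over pool B) of the tested genes of 5 related lists, 1 point per gene, red where called higher with pool A and blue where called higher with pool B; black bars are list medians and the grey band is the middle 50% of all tested genes, from -0.63 to 0.58. The list medians run from -0.061 to 0.57, and the stress response list holds called genes on both sides.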

How the data were processed

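Pull-down RNA from 6 libraries of GH4C1 cells was analysed, 3 per oligonucleotide pool, grouped by sample title. The authors deposited raw counts per gene for 32883 genes. Per the submitters' processing notes, STAR and featureCounts were used, and their settings, the genome build and the annotation are not given in the sources used here. The authors also deposited a mean count per pool, a signal column that was not used. Total counts per library ran from 1826390 to 3685899.

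The fit over all genes used edgeR 4.0.16 under R 4.3.3 (TMM, filterByExpr, quasi-likelihood test, pool as the only term, two-sided) over all 11582 genes that passed the filter, with Benjamini-Hochberg adjustment over all of them and a threshold of 0.05. The standard error is the log2 fold change divided by the root of the F statistic. A gene that did not pass the filter or had under 10 counts in every library was called too low to judge. Count ratios used a pseudocount of 0.5 and exact permutation tests. The test was run on simulated counts before use. Alternatives included DESeq2 1.42.0 and limma 3.58.1.

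The genes and lists were chosen with earlier results of these data known. All 10 genes are named; in each of the 5 related lists, the up to 5 called genes with the largest fold changes and the most abundant gene not called are named. Klf10, Ptprc, the line and other cell type markers, and the genes listed as untested, were named after their values were seen. 1 gene of a related list that did not pass the filter is not reported here.

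Replicate numbers are shared between pools, but deviations of same-numbered libraries from their pool means correlated with r of 0.041, -0.020 and 0.019, and no pairing was assumed. Within pools, counts of 2 libraries differed beyond sampling noise (chi-square per degree of freedom 5.86 to 20.7).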

Additional observations from a re-analysis of the deposited data

How the results depend on the processing

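The alternatives covered scaling, filter, test, the replicate block and leaving out each library, and the cause of the changes was not tested. Of 98 refits of the 7 tested genes, 84 stayed on the same side of the threshold with the same sign, 6 lost a call (Fosl2 and Myc), 6 gained one (Jund) and 2 turned sign (Junb, from -0.58 to 0.52 over the fits without a library). The numbers of all genes higher with pool A and pool B stayed within 1.5 times 2154 and 2546, 1856 to 2048 and 2194 to 2390 over the fits without a library, and the share higher with pool A was 36.9% with total counts and 52.8% with upper-quartile factors, against 45.8%. The 10 genes had 1 call higher with pool A with total counts, 1 to 3 over the fits without a library, and 1 to 2 higher with pool B. With total counts alone, calls higher with pool A were 1 among other immediate early genes, 3 among upstream regulators and 5 among stress response genes, and the medians were -0.20 for AP-1 and ATF genes, 0.10 for immediate early genes, 0.43 for upstream regulators and -0.17 for stress response genes. With upper-quartile factors, 1 AP-1 or ATF gene was higher with pool B, 4 immediate early and 2 Myc network genes were higher with pool A, the upstream median was 0.67, the stress response median was 0.074, and Nab2 turned to 0.055. The Myc network had 2 genes higher with pool A also with DESeq2 size factors, with limma-voom and with at least 10 counts in every library. That filter gave medians of 0.059 for immediate early genes and 0.35 for upstream regulators, and no filter gave 0.40 for immediate early genes. Over the fits that leave out a library, calls higher with pool A ran from 1 to 3 (immediate early), 3 to 5 (upstream) and 1 to 2 (Myc network), and AP-1 and ATF calls higher with pool B from 1 to 3. The medians ran from -0.082 to 0.40 (immediate early), 0.42 to 0.61 (upstream), -0.17 to 0.13 (stress response) and -0.076 to 0.20 (Myc network), and Nab2 from -0.24 to 0.10. With the replicate number as a block, 2085 and 2476 genes were called and the calls of the 10 genes did not change, while immediate early genes higher with pool A numbered 1 (Btg2 was lost, adjusted p 0.0709) and upstream regulators 4 (Crtc2 was lost, adjusted p 0.052). Pairing same-numbered libraries could not change the Jun per Jund result. The mean log2 difference is -1.71 by construction. All pool A ratios were below all pool B ratios, so 3 of 3 pairs had to go that way. At low depth, Fos, Egr1, Junb and Ier2 gave intervals that span 0.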
